A study of Nicotiana tabacum with 36 samples.

Results

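Shoot apex was compared with whole shoot in tobacco (*Nicotiana tabacum*) cv. K326, using the 24 libraries of a series of 36 whose labels give the tissue as shoot apex (12 libraries) or shoot (12 libraries). The remaining 12 libraries are of root and enter the fit to help estimate the spread between replicates and are otherwise only described. All plants were 56 days of age and were grown with 18 h of light and 6 h of darkness, and the labels name no transgene, mutation or treatment. Sampling was at ZT0, ZT6, ZT12 and ZT18, in hours from the start of the light period, with 3 biological replicates at each time-point, so shoot apex and shoot are matched at all 4 time-points. Total RNA was read as single reads of 100 bases and assigned by the authors to 69500 predicted gene models of the Nitab4.5 assembly.

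The shoot apex holds the apical meristem, the group of dividing cells from which stem, leaves and later flowers are formed, together with the youngest leaf primordia around it. Whole shoot is mostly expanded leaf and stem, tissues in which division has largely stopped and photosynthesis and transport take place. Neither the labels nor the methods say whether the apex was removed from the whole shoot samples, and both are mixtures of cell types, so that fewer cells of a type and less RNA per cell cannot be told apart. The identifiers of the gene models are not paired with gene names in the tables used here, and 0 of the 69500 occur in the gene table that RefSeq provides for the species. Defining markers of meristem or leaf could therefore not be looked up, and the tissue labels were checked only by how the libraries group. For the same reason no function is given to any gene model, and the models are described by the size of their difference, their level, their length, their place on a scaffold and their behaviour over the day.

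The total expected count, the number of reads that RSEM assigned to gene models, ran from 10608197 to 21265992 in shoot apex with a median of 14261434, and from 4125090 to 19975710 in shoot with a median of 11798978. A pair of shoot libraries stood apart, ZT6 replicate 1 and ZT18 replicate 2. In the authors' quality figures both had a far lower share of reads mapped than every other shoot apex or shoot library. Their share of duplicated reads was far higher. In shoot ZT6 replicate 1 the 10 most counted gene models took 36.6% of all counts (Wilson 95% interval 36.56% to 36.65%, which covers counting error only). The same share was 12.2% in shoot ZT18 replicate 2, against 1.42% to 5.45% in the shoot apex libraries and 2.41% to 5.25% in the other 10 shoot libraries. The 50 most counted gene models of shoot ZT6 replicate 1 held 67.7% of its counts and 23.2% of those of shoot ZT18 replicate 2, but only 0.0159% to 1.32% in the other 22 libraries. Their median length was 534 bases, against 1152 bases for all gene models tested. The normalisation factor of edgeR's TMM method, which corrects for a few models taking a large part of a library, was 0.298 for shoot ZT6 replicate 1, while TPM carries no such correction. In log2 normalised counts these 2 libraries also had the lowest mean correlation with the replicates of their group, 0.861 and 0.845. Results that rest on them are given with and without them, except where stated. Of the root libraries, ZT6 replicates 1 and 2 and ZT18 replicate 2 had the lowest shares of reads mapped in the authors' quality figures. For root ZT18 replicate 2 the total expected count of 13332241 was far above the mapped reads listed there, and the reason was not tested. No root library was left out singly.

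A principal component analysis of log2 normalised counts placed shoot apex and shoot in separate groups at every time-point. The first component held 54.9% of the variance and set root apart from both shoot tissues, and the second held 14.8% and separated all 12 shoot apex libraries from all 12 shoot libraries with no overlap. Shoot ZT18 replicate 2 lay nearest to root of the shoot libraries on the first component. No library of shoot apex or shoot lay within the other tissue.

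**Figure D1:**
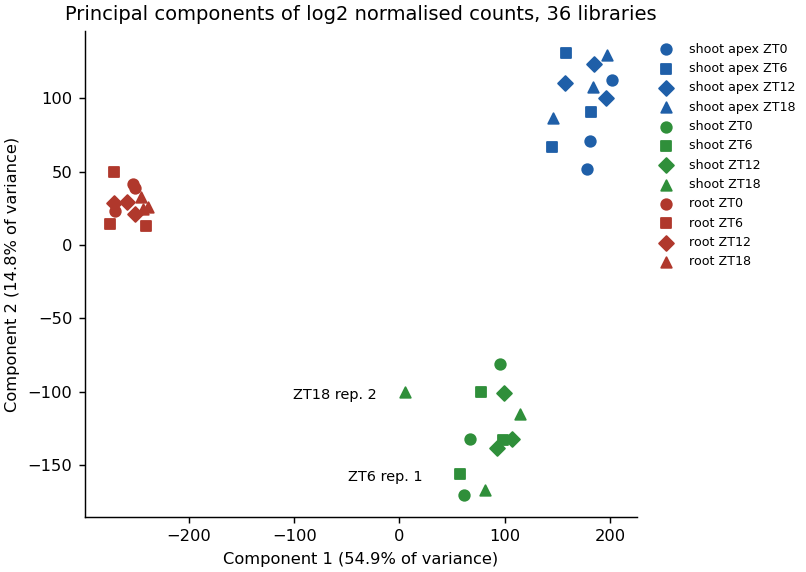
First and second principal components (arbitrary units) of log2 normalised counts for all 36 libraries, 1 point per library, coloured by tissue and shaped by time-point, with the 2 shoot libraries that stood apart named. The 12 shoot apex libraries lie above the 12 shoot libraries on the second component, which holds 14.8% of the variance, with no overlap, and the root libraries lie between them.

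Averaged over the 4 time-points, more than 1 in 2 of the tested gene models differed between shoot apex and shoot, but most of the differences were small. Of 44594 gene models tested, 24900 passed the threshold (55.8%, adjusted p below 0.05 by edgeR's quasi-likelihood test and Benjamini-Hochberg adjustment). In shoot apex 11675 of them were higher (26.2%) and 13225 were lower (29.7%). Which side held more depended on the libraries and the filter. Filtered and fitted on the 24 shoot apex and shoot libraries alone, 23459 of 41502 models passed (56.5%), 11954 higher and 11505 lower. With no filter 12810 were higher and 12513 lower, and without shoot ZT12 replicate 1 there were 12233 higher and 12048 lower. The median log2 fold change, shoot apex over shoot, was 1.03 among those higher and −1.09 among those lower, against −0.07 over all gene models tested. A difference of under 2-fold made up 5631 of the higher models (48.2%) and 6079 of the lower ones (46.0%). Large differences lay more often on the lower side. At least 4-fold was reached by 5787 gene models (13% of those tested), of which 2167 were higher and 3620 lower in shoot apex, and at least 16-fold by 272 higher and 894 lower models. From the 24 libraries alone the numbers were 2187 higher and 2884 lower at 4-fold, and 287 higher and 786 lower at 16-fold. Without the 2 libraries that stood apart the lead of the lower side was smaller, with 2281 higher and 3161 lower at 4-fold. The precision of the averaged difference was a median standard error of 0.22 on the log2 scale, and the smallest difference that passed was 0.17. These p-values measure the spread between the replicates of a group, and RSEM divides the reads of near-identical homeologous copies between them, so the 2 copies of a gene are not independent here.

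Of the gene models past the threshold, 94.8% were also past it in the same direction without shoot ZT6 replicate 1, 0 were past it in the opposite direction, and 92.1% were past it in the same direction without both libraries that stood apart. The numbers past the threshold were then 24273 and 24177. Among the models of at least 4-fold, 93.2% passed in the same direction without shoot ZT6 replicate 1. Most of the 50 most counted models of shoot ZT6 replicate 1 no longer passed without it, and they were only part of the models lost. With it, 48 of the 50 were lower in shoot apex past the threshold and their median log2 fold change was −2.99, and without it 2 of the 50 passed and the median was −1.16. By the mean length of the models that hold their counts, the libraries form 2 classes, found in the data and present in all tissues. The time-points are not balanced, and the class of longer models has no shoot apex library at ZT0 and no shoot library at ZT18. Each class is part of the fit over all libraries, so a shared direction is partly built in. Within the class of longer models, with 4 shoot apex and 3 shoot libraries, 13031 gene models passed, of which 12700 had the same direction as over all libraries. Within the class of shorter models, with 8 shoot apex and 9 shoot libraries, 26178 passed, of which 23110 had the same direction. Both classes were tested in a separate fit over groups of tissue and class, with terms for time-point (edgeR's quasi-likelihood test and Benjamini-Hochberg adjustment). Without the 2 libraries that stood apart the second class gave 26316 models, 22926 in the same direction and 89 in the opposite one.

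**Figure D2:**
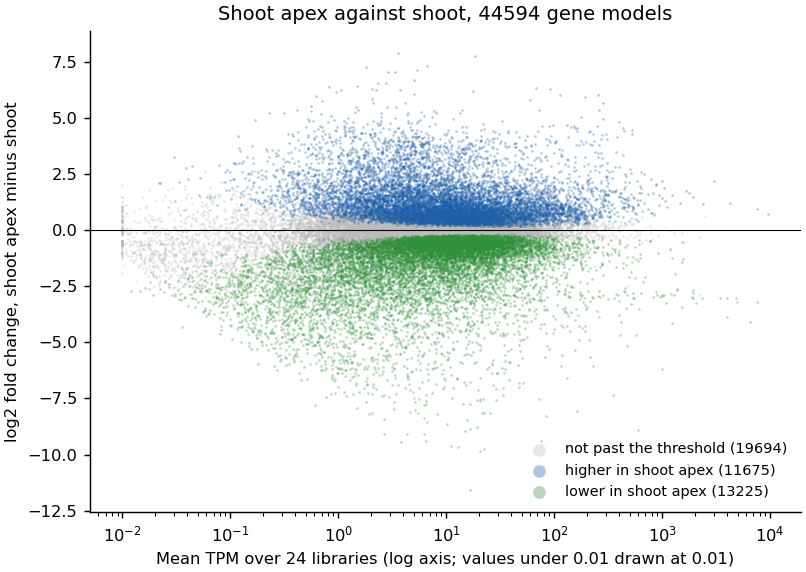
Fitted log2 fold change of shoot apex over shoot, averaged over 4 time-points, against mean TPM over the 24 libraries (log axis) for 44594 gene models, 1 point each, with those higher (11675) and lower (13225) in shoot apex past the threshold in colour. The lower side reaches further from 0, with 894 models at 16-fold or more against 272 on the higher side.

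The share of gene models that differed was highest among the most abundant ones. In TPM, a measure of abundance corrected for model length, 45.8% of the models with a mean under 1 passed the threshold, 56.1% of those between 1 and 10, 57.5% of those between 10 and 100, and 71.1% of those at 100 or more. The models under 1 TPM comprised 788 higher and 1780 lower in shoot apex, but 3092 of all models tested passed the filter on low counts only with root included. From the 24 shoot apex and shoot libraries alone, 2720 models under 1 TPM were tested in place of 5603, with 643 higher and 937 lower, and the shares that passed were 58.1%, 55.2%, 56.5% and 70.6% over the same classes. Among those of at least 100 TPM there were 663 higher and 349 lower, or 681 and 324 from the 24 libraries alone, and 48 of this class belong to the 50 models that crowd shoot ZT6 replicate 1. Model length differed little between the directions, with a median of 1224 bases for the higher and 1170 bases for the lower models. The models at least 4-fold lower were shorter, with a median of 945 bases, against 1140 bases for those at least 4-fold higher. From the 24 libraries alone the medians were 987.5 and 1143 bases. The models that crowd shoot ZT6 replicate 1 are short and in part belong to the lower set. The medians at 4-fold are not given without the 2 libraries that stood apart.

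The gene models at least 4-fold higher in shoot apex were a larger part of its transcripts than of the shoot's, as their choice implies, and the values show how much of each library they made up. These 2167 models took 6.43% to 14.97% of the TPM of shoot apex libraries (median 9.82%), against 0.146% to 2.13% in shoot (median 1.64%). The 3620 models at least 4-fold lower took 0.931% to 5.28% in shoot apex (median 1.80%), against 7.73% to 87.0% in shoot (median 11.6%), where the highest value is that of shoot ZT6 replicate 1. With both libraries that stood apart left out of fit and values, the 3161 models that were then at least 4-fold lower took 0.641% to 2.10% in shoot apex and 4.81% to 17.3% in the other 10 shoot libraries. In neither direction did the libraries of shoot apex and shoot overlap in these sums.

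Root was not part of these contrasts but entered the filter, so models high in root alone could be tested. The levels in root are given with that limit. Among the models at least 4-fold higher in shoot apex the median of the mean TPM was 8.21 in shoot apex, 0.995 in shoot and 2.10 in root. Among those at least 4-fold lower it was 0.455 in shoot apex, 4.25 in shoot and 6.43 in root, with shoot apex lowest of the 3 tissues as the choice of models partly implies. With the filter and fit on the 24 libraries alone, the medians of the lower set were 0.715 in shoot apex, 6.63 in shoot and 6.97 in root. A mean of at least 1 TPM in root was reached by 65.6% of the higher set and 82.2% of the lower set, against 88.6% of all gene models tested, or by 65.6%, 81.3% and 89.2% from the 24 libraries alone.

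The libraries were also compared with no model. In 4572 gene models (10.3% of those tested) every shoot apex library lay on the same side of every shoot library in TMM-normalised counts, 2563 above and 2009 below, and all 4572 had passed the threshold in edgeR. Among the models past the threshold at 4-fold or more, 42.9% were separated in this way. Without shoot ZT6 replicate 1 the number was 4957. In TPM, where that library is not corrected, it was 2584 with the library and 3713 without it.

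By the authors' rule for expression, at least 1 TPM in all 3 replicates of at least 1 time-point, 37186 gene models were expressed in shoot apex, 37346 in shoot and 34999 in both. The paper reports more models as expressed in all conditions than these counts give for either tissue. The reason for the lower counts here was not tested. The rule uses TPM, which is not corrected in shoot ZT6 replicate 1. There 20769 models reached 1 TPM, against 35993 to 38823 in the other shoot libraries. At most 20769 models could therefore meet the rule in shoot at ZT6, and counts without that library are not given. With all libraries, 2187 models met the rule in shoot apex and not in shoot, and 2347 in shoot and not in shoot apex. The same libraries were used to choose and to test these models, so the counts that follow describe how well the rule and the test coincide. Of the 2034 tested models expressed in shoot apex alone, 1602 were higher in shoot apex past the threshold in edgeR and 43 were lower. Of the 2193 tested models expressed in shoot alone, 1838 were lower in shoot apex and 1 was higher. Models seen in every library of one tissue and none of the other were few, with 7 that had a count above 0 in all 12 shoot apex libraries and 0 in all 12 shoot libraries, and 8 with the reverse.

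The gene models named here are those with the largest fitted differences in each direction among 2628 models (1397 higher and 1231 lower in shoot apex) that passed the threshold on average and at each time-point, whose libraries did not overlap and whose mean was at least 10 TPM in the higher tissue. The higher pair was nearly absent from shoot and from root. Nitab4.5_0011070g0010.1, a model of 590 bases, had 11.5, 1.18 and 36.3 TPM in shoot apex at ZT0, against 0, 0 and 0.21 TPM in shoot. At ZT6 it had 4.42, 8.24 and 6.05 TPM in shoot apex, against 0, 0.10 and 0 TPM in shoot. At ZT12 it had 6.49, 4.98 and 46.6 TPM in shoot apex, against 0, 0 and 0.17 TPM in shoot, and at ZT18 it had 11.9, 16.8 and 5.30 TPM in shoot apex, against 0, 0.36 and 0 TPM in shoot. The lowest shoot apex library lay above the highest shoot library, 8 of 12 shoot libraries and all 12 root libraries were listed at 0, and replicates of shoot apex differed widely. Summed over libraries and divided by depth, its counts were 252 times higher in shoot apex (exact 95% interval 98.0 to 925, counting error only), with a total of 4 counts in shoot. The fitted log2 fold change was 7.33 (standard error 0.76, adjusted p = 4.08e-09, edgeR's quasi-likelihood test and Benjamini-Hochberg adjustment), a value that depends on the prior count because shoot is close to 0.

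Nitab4.5_0002027g0180.1, a model of 1266 bases, ran from 5.02 to 16.9 TPM in shoot apex, a narrower range. Its TPM in shoot apex was 5.81, 7.83 and 13.7 at ZT0, 5.73, 7.06 and 10.95 at ZT6, 12.4, 16.6 and 16.9 at ZT12, and 11.4, 13.8 and 5.02 at ZT18. In shoot it ran from 0 to 0.36 TPM with a median of 0.095, and in root from 0 to 0.43 TPM with a median of 0.08. Shoot apex alone had more than 1 TPM of this model, in all 12 libraries. The summed counts per depth were 90.1 times higher in shoot apex (exact 95% interval 56.9 to 152), and the fitted log2 fold change was 7.13 (standard error 0.47, adjusted p = 6.78e-15, the same edgeR test and Benjamini-Hochberg adjustment).

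The lower pair reached larger differences. Nitab4.5_0009277g0010.1, a model of 2149 bases, was listed at 0 in 11 of 12 shoot apex libraries and at 0.10 TPM in the other. In shoot it had 127, 88.6 and 10.2 TPM at ZT0, 0.48, 8.22 and 31.1 TPM at ZT6, 16.9, 11.04 and 56.02 TPM at ZT12, and 10.4, 5.65 and 34.1 TPM at ZT18. Every shoot library lay above every shoot apex library, a separation that the naming rule required in normalised counts. The shoot replicates of a time-point spread widely, and the lowest of them was shoot ZT6 replicate 1. Root stayed between 0 and 0.89 TPM, so that shoot was the only tissue of the 3 with more than 1 TPM. With 2 counts in all of shoot apex, the summed counts per depth were 5869 times higher in shoot (exact 95% interval 1624 to 48467). The fitted log2 fold change was −11.58 (standard error 0.81, adjusted p = 1.93e-11, the same edgeR test and Benjamini-Hochberg adjustment) and again depends on the prior count.

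Nitab4.5_0000605g0240.1, a model of 1267 bases, was one of the abundant models of shoot and almost silent in shoot apex. It ran from 0 to 0.49 TPM in shoot apex, with a median of 0.145. In shoot it had 1131, 1625 and 123 TPM at ZT0, 16.6, 116 and 918 TPM at ZT6, 561, 139 and 863 TPM at ZT12, and 345, 137 and 969 TPM at ZT18. The lowest shoot value, again that of ZT6 replicate 1, was above all shoot apex values, as the naming rule required in normalised counts. In root it had 1.30 to 50.4 TPM, with a median of 5.15, between the other tissues and overlapping the lowest shoot library. The summed counts per depth were 3269 times higher in shoot (exact 95% interval 2361 to 4668), and the fitted log2 fold change was −11.44 (standard error 0.76, adjusted p = 3.65e-13, the same edgeR test and Benjamini-Hochberg adjustment). Without shoot ZT6 replicate 1 the fitted log2 fold changes of the 4 models were 7.35, 7.13, −11.71 and −11.55, in the order in which they are described. With each library left out in turn they ran from 6.85 to 7.97, from 6.99 to 7.33, from −12.30 to −11.31 and from −11.63 to −11.07. The value of 7.97, for Nitab4.5_0011070g0010.1, was without shoot ZT18 replicate 2, and that of −12.30, for Nitab4.5_0009277g0010.1, was without shoot apex ZT0 replicate 1, the libraries whose omission moved a fold change by over 1.5 times.

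**Figure D3:**
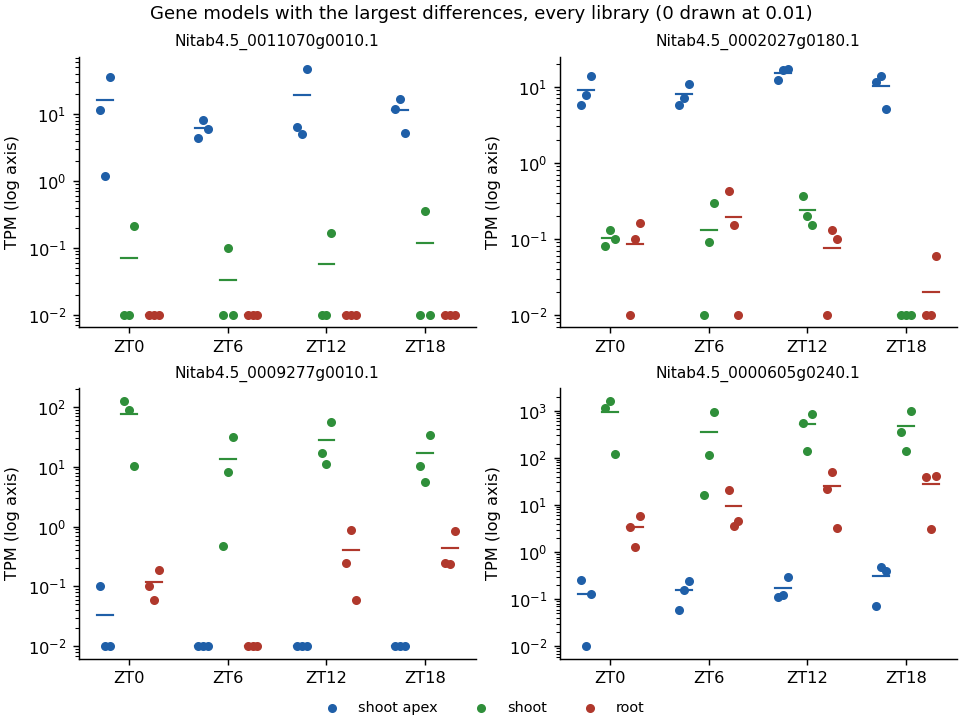
TPM (log axis, 0 drawn at 0.01) of the 4 gene models with the largest differences at each time-point in shoot apex, shoot and root, 1 point per library and a line at the mean of 3 replicates. In the upper pair shoot apex lies above both other tissues in every library, and in the lower pair every shoot apex library, at 0.49 TPM or less, lies below every shoot library. The naming rule required shoot apex and shoot not to overlap in normalised counts.

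Tested at single time-points, with 3 libraries of each tissue, between 11450 and 13073 gene models differed between shoot apex and shoot. At ZT0 13073 gene models passed the threshold (29.3%), 6115 higher and 6958 lower in shoot apex. At ZT6 11450 passed (25.7%), 5122 higher and 6328 lower. At ZT12 12098 passed (27.1%), 5671 higher and 6427 lower, and at ZT18 12921 passed (29%), 6027 higher and 6894 lower (edgeR's quasi-likelihood test and Benjamini-Hochberg adjustment). Lower models outnumbered higher ones at all 4. The median standard error of a single time-point was 0.43 to 0.44, and the median size of the differences that passed was 1.62, 1.72, 1.80 and 1.78 on the log2 scale from ZT0 to ZT18. Without shoot ZT6 replicate 1 the number at ZT6 was 9108.

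**Figure D4:**
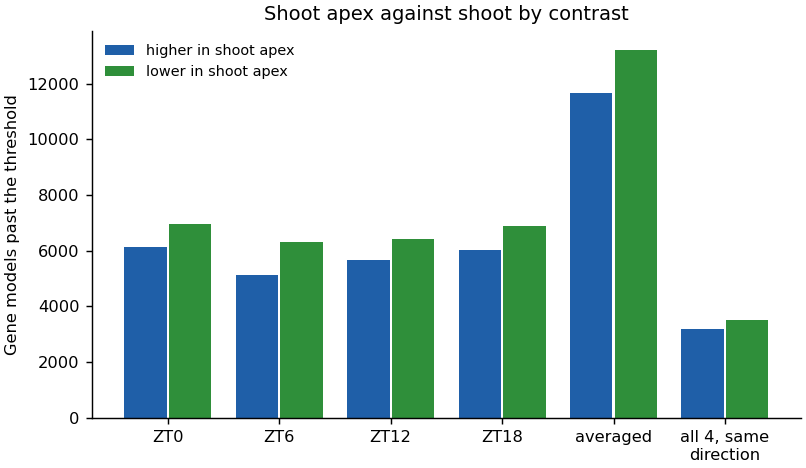
Number of gene models past the threshold that were higher or lower in shoot apex than in shoot, at each time-point, averaged over the 4 time-points, and past the threshold in the same direction at all 4. Each single time-point has between 5122 and 6958 models in a direction, and 6695 models passed at all 4.

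The same direction at all 4 time-points, past the threshold each time, was found for 6695 gene models (15% of those tested), 3184 higher and 3511 lower in shoot apex. A further 3152 models passed at exactly 3 time-points, 3666 at 2 and 5962 at 1. The averaged comparison passed 6333 models that reached the threshold at no single time-point, among them 4986 of the 11710 models under 2-fold (42.6%) and 1347 of the 13190 of at least 2-fold (10.2%), and missed 911 that reached it at some time-point. Between any pair of time-points, 64.3% to 78.8% of the models past the threshold at the first or the second were past it in the same direction at the other, and 3 to 13 models were past it in opposite directions. These contrasts use different libraries but share a fit and its estimate of the spread. Across gene models, which are not independent replicates, the fitted log2 fold changes of 2 time-points had Pearson correlations of 0.71 to 0.86, or 0.77 to 0.83 without shoot ZT6 replicate 1. The models with the same direction at all 4 time-points were longer than others, with medians of 1382 bases for the higher and 1263 bases for the lower ones, against 1152 bases for all. Their median TPM was 15.4 in shoot apex, 3.64 in shoot and 5.64 in root for the higher models, and 3.62 in shoot apex, 14.0 in shoot and 14.9 in root for the lower ones.

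Without regard to a threshold, the fitted difference had the same sign at all 4 time-points in 23408 of the 24900 models past the threshold on average (94.0%), and in 6032 of the 19694 models not past it (30.6%). The average enters both quantities, so the first share is partly fixed by the choice of models. Among the models of at least 4-fold the share was 94.3%. Without shoot ZT6 replicate 1, 5985 of the 6695 models were past the threshold in the same direction at all 4 time-points, of 6267 in all.

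Whether the difference between shoot apex and shoot itself changed over the day was tested with 3 degrees of freedom. Few gene models passed, 29 of 44594 (0.065%, edgeR's quasi-likelihood test and Benjamini-Hochberg adjustment), with 2324 at an unadjusted p under 0.05 (5.21%). DESeq2 passed 238 models, all 29 among them. Of the 29, 26 also differed on average, as did 55.8% of all models tested, and 24 had differences of both signs over the 4 time-points, as did 33.98% of all models tested. The fitted log2 fold change of these models ranged over a median of 2.48 between time-points, against 0.70 for all gene models tested. Past the threshold at single time-points, 5 were higher and 10 lower in shoot apex at ZT0, 1 higher and 14 lower at ZT6, 6 higher and 8 lower at ZT12, and 6 higher and 13 lower at ZT18. The number depended on single libraries, from 13 to 39 with each left out in turn. It was 19 or lower without shoot apex replicates 1 (18) and 2 (16) of ZT0, replicates 1 (15), 2 (14) and 3 (17) of ZT6, replicate 2 of ZT12 (19) or replicate 1 of ZT18 (17), and without shoot replicates 1 of ZT0 (13), 3 of ZT6 (16), 2 of ZT12 (17) or 3 of ZT18 (14).

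The 6 models that passed this test, were higher in shoot apex at some time-point and lower at another past the threshold, and had at least 10 TPM in a group gave 2 to be named, those with the smallest p. Nitab4.5_0001456g0090.1, a model of 1383 bases, ran from 1.43 to 3.73 TPM in shoot apex and from 0.23 to 16.9 TPM in shoot. In shoot apex it had 1.56, 1.84 and 2.00 TPM at ZT0, 3.11, 1.52 and 2.20 TPM at ZT6, 2.66, 3.73 and 2.50 TPM at ZT12, and 1.43, 1.88 and 2.82 TPM at ZT18. In shoot it had 1.72, 2.10 and 2.77 TPM at ZT0, 1.97, 16.9 and 14.2 TPM at ZT6, 6.32, 4.85 and 5.84 TPM at ZT12, and 0.90, 0.23 and 0.88 TPM at ZT18. The tissues overlapped at ZT0, shoot was above shoot apex in all libraries at ZT12, and shoot apex was above shoot in all libraries at ZT18, in TPM and in normalised counts. At ZT6 a pair of shoot libraries was far above shoot apex, and the low value of 1.97 TPM is that of replicate 1, whose TPM is not corrected for the models that crowd it. The fitted log2 fold changes were −0.02, −2.84, −0.83 and 1.29 from ZT0 to ZT18 (standard errors 0.33, 0.35, 0.32 and 0.35), and the test of their change over the day gave an adjusted p of 0.000697 (edgeR's quasi-likelihood test and Benjamini-Hochberg adjustment), or 0.00126 without shoot ZT6 replicate 1. The difference at ZT12 missed the threshold (adjusted p = 0.0571, the same edgeR test) and passed it without shoot ZT6 replicate 1 (0.0376) and without shoot apex ZT12 replicate 2 (0.0322). The difference at ZT18 passed in edgeR (adjusted p = 0.00672) but not in limma on log2(TPM + 1) with all libraries (adjusted p = 0.147). Root had 0.20 to 0.93 TPM throughout.

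Nitab4.5_0000640g0140.1, a model of 627 bases, had its highest values at ZT12 in both tissues. In shoot apex it had 0.17, 0.41 and 0.22 TPM at ZT0, 4.98, 4.14 and 3.25 TPM at ZT6, 69.6, 49.3 and 50.03 TPM at ZT12, and 11.1, 9.62 and 7.09 TPM at ZT18. In shoot it had 1.38, 2.61 and 0.81 TPM at ZT0, 1.92, 13.7 and 15.5 TPM at ZT6, 91.0, 62.3 and 57.3 TPM at ZT12, and 4.76, 3.58 and 3.98 TPM at ZT18. At ZT12 the tissues overlapped. In TPM shoot lay above shoot apex in every library at ZT0 and, apart from replicate 1, at ZT6, and below it in every library at ZT18. In normalised counts (CPM), which correct for the models that crowd a library, all 3 shoot libraries lay above shoot apex at ZT6, and the tissues overlapped at ZT18. The CPM values at ZT18 were 6.06, 5.54 and 2.77 in shoot apex and 2.36, 3.22 and 2.06 in shoot, the 3.22 being that of replicate 2, which stood apart. The fitted log2 fold changes were −2.13, −1.86, −0.23 and 0.93 from ZT0 to ZT18 (standard errors 0.40, 0.32, 0.30 and 0.32), with an adjusted p of 0.00471 for their change over the day (the same edgeR test and Benjamini-Hochberg adjustment), or 0.0140 without shoot ZT6 replicate 1. The difference at ZT18 (adjusted p = 0.0277) missed the threshold, with the same sign, without shoot apex ZT18 replicate 1 (adjusted p = 0.136) or replicate 2 (0.0737), without shoot ZT18 replicate 1 (0.0805) or replicate 3 (0.102), and in limma on log2(TPM + 1) with all libraries (0.132). In that limma fit no time-point passed, with an adjusted p of 0.140 at ZT0 and 0.177 at ZT6. With a pseudocount of 0.1 only ZT0 passed in limma (adjusted p = 0.00733). In root this model had 7.91 to 25.4 TPM.

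**Figure D5:**
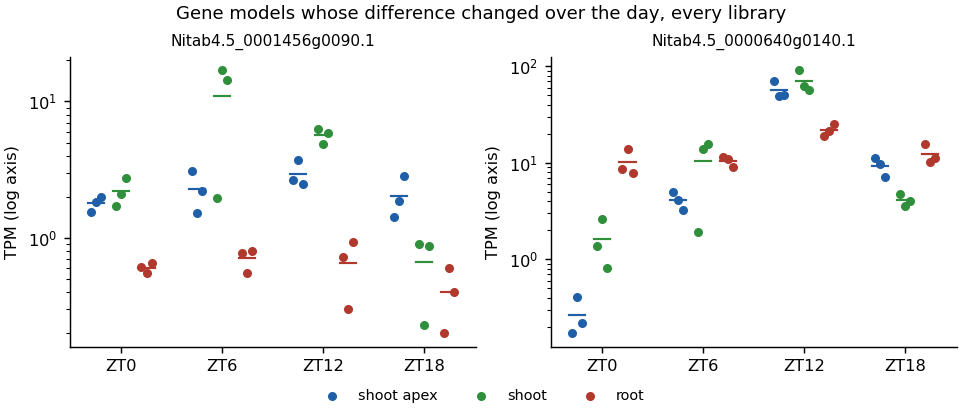
TPM (log axis) of the 2 gene models whose difference between shoot apex and shoot changed over the day, with root, 1 point per library and a line at the mean of 3 replicates. In TPM, shoot apex lies above shoot in all libraries of both models at ZT18, an order that normalised counts do not keep for Nitab4.5_0000640g0140.1, while at ZT6 shoot lies above shoot apex in its replicates 2 and 3.

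Counted per library, shoot apex had more gene models than shoot at 100 TPM or more. Without the libraries that stood apart it had fewer at 0.1 TPM or more. At least 100 TPM was reached by 1556 ± 72.1 models in shoot apex and 1279 ± 443 in shoot (mean ± SD, n = 12 each), a difference of 277 (exact permutation of tissue labels within time-points, two-sided p = 0.00109). The difference was smaller without the libraries that stood apart, 178 without shoot ZT6 replicate 1 (exact permutation p = 0.00221) and 91.7 without both (exact permutation p = 0.00513). At the threshold of 1 TPM the numbers were 37298 ± 962 in shoot apex and 36442 ± 5004 in shoot (SD, n = 12 each), a difference of 856 that turned to −569 without shoot ZT6 replicate 1 and −757 without both libraries (exact permutation p = 0.934, 0.133 and 0.0610). At 5 TPM the difference was 1529 with all libraries, −290 without shoot ZT6 replicate 1 and −853.5 without both (exact permutation p = 0.668, 0.663 and 0.179). At 0.1 TPM the difference was −119 with all libraries, −812 without shoot ZT6 replicate 1 and −1003 without both (exact permutation p = 0.957, 0.0175 and 0.00468). The 10 most counted models took 3.05% ± 1.08 of counts in shoot apex and 6.92% ± 9.71 in shoot (SD, n = 12 each), a difference of −3.86 percentage points, or −1.16 without shoot ZT6 replicate 1 and −0.37 without both libraries (exact permutation p = 0.0916, 0.184 and 0.367). The total expected count was also higher in shoot apex, with a mean of 15024959 against 11627832 in shoot (exact permutation p = 0.0335), a difference that did not pass without shoot ZT6 replicate 1 (exact permutation p = 0.0662) or without both (exact permutation p = 0.130), and its part in the number of models reaching a TPM was not tested. These tests were run for several measures of the same libraries and the p-values are not adjusted for that.

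The tissues shared few of their 10 most abundant gene models and most of their 1000 most abundant ones. The 10 with the highest mean TPM in shoot apex ran from 1985 to 12177 TPM, and 9 of them were higher in shoot apex past the threshold in edgeR, or 7 without the 2 libraries that stood apart. The share of all tested models was 26.2%, or 25.3% without the 2 libraries, and a choice by the level in shoot apex favours the higher side. Of the 10 highest in shoot, 6 were among the 50 models that crowd shoot ZT6 replicate 1, so the list was taken again without both libraries. These 10 ran from 2434 to 14376.5 TPM, and in the fit without both libraries 6 were lower and 1 higher in shoot apex. Of all models in that fit 28.2% were lower, and a choice by the level in shoot favours that side. Shoot apex and shoot shared 2 of their 10 highest models, 33 of their 100 highest and 609 of their 1000 highest, or 3, 45 and 633 without the 2 libraries.

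The identifiers give each model's scaffold and its order on it, which allowed neighbours to be compared over 10912 scaffolds. Of 33682 pairs of tested models next to each other, both members passed the threshold on average in 10817, where 55.8% of all tested models passed. In 5888 of these 10817 pairs (54.4%) they had the same direction, both higher in shoot apex in 2701 and both lower in 3187. In pairs on the same scaffold with 1 to 10 tested models between them the share was 51.3%. The share was higher where both members differed by at least 4-fold, with 70.6% of 780 adjacent pairs and 58.7% of 2417 pairs further apart. At 4-fold the directions were less even, 2167 higher and 3620 lower models, which by itself raises such a share. The share that unrelated models would give was not computed. Over all adjacent pairs the log2 fold changes had a Pearson correlation of 0.11, a weak relation that is given as a description, and adjacent copies of a gene can share reads in RSEM's assignment.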

How the data were processed

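RNA-seq libraries of root, shoot and shoot apex were made at 4 time-points with 3 replicates, 36 in all. Reads were trimmed by the authors and mapped to 69500 gene models of Nitab4.5, and the authors deposited, for each library, expected counts (estimated counts, not normalised) and TPM from RSEM. The submitters' processing notes name CASAVA 1.9.4, RSEM 1.2.7 and Bowtie 1.1.0. The authors' files give an effective length equal to the model length in all 36 libraries. Groups came from the sample labels.

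For tests, expected counts were rounded, filtered by filterByExpr (minimum count 10, minimum total count 15), scaled by TMM factors and analysed in edgeR 4.0.16 (glmQLFit, then glmQLFTest) over 12 groups of tissue and time-point without a replicate block. Contrasts were shoot apex minus shoot at each time-point, their average, and their change over the day. All tests were two-sided and p-values were adjusted by Benjamini-Hochberg over all 44594 gene models tested, with a threshold of 0.05. A single value per library was tested by exact permutation of tissue labels within time-points, with all 160000 arrangements for 24 libraries. Ratios of summed counts have exact 95% intervals. The averaged contrast was tested on simulated counts with a single dispersion of 0.15 and no library crowded by a few models. Of 100 models changed 2-fold 63% were recovered, and of 100 changed 4-fold 100%, while 8 unchanged models passed. No change over the day was simulated, so recovery of such a change was not tested. R 4.3.3, limma 3.58.1, DESeq2 1.42.0, Python 3.11.15 and SciPy 1.17.1 were used.

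The comparison, the naming rule and the measures were chosen with earlier results of these data known. The rule named 2 gene models in each direction by fitted size and 2 by the smallest p of the change over the day, among those that meet the conditions given where they are described. Totals per library ran from 4125090 to 21265992 expected counts, and 0 pairs of libraries were identical. Alternatives covered normalisation, filter, test, replicate block, a term for the length of the models counted, and TPM in limma with pseudocounts 1 and 0.1. Each shoot apex and shoot library was also left out in turn, but no root library was. The comparison within classes of libraries, TPM without shoot ZT6 replicate 1 and limma without it were chosen after seeing the data.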

Additional observations from a re-analysis of the deposited data

Results flagged for a closer look

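The difference between shoot apex and shoot itself changed over the day in Nitab4.5_0001456g0090.1 (adjusted p = 0.000697) and in Nitab4.5_0000640g0140.1 (adjusted p = 0.00471), each by a test with 3 degrees of freedom in edgeR's quasi-likelihood fit and Benjamini-Hochberg adjustment over all gene models. Both moved to the higher side in shoot apex at ZT18, with log2 fold changes of 1.29 and 0.93, and were lower in shoot apex at ZT6, with −2.84 and −1.86. The naming rule took the smallest p among models past the threshold in opposite directions at single time-points. The small p and the change of sign are therefore part of how these models were chosen. With each library left out in turn the adjusted p stayed between 0.000837 and 0.00831 in Nitab4.5_0001456g0090.1 and between 0.00120 and 0.0334 in Nitab4.5_0000640g0140.1. In limma on log2(TPM + 1) with all libraries the ZT18 difference passed in neither model (adjusted p = 0.147 and 0.132). Nor did it in limma with a pseudocount of 0.1 (adjusted p = 0.0789 and 0.181). The ZT6 difference passed in both limma fits in the first model (0.00469 and 0.0300), and in neither in the second (0.177 and 0.224). Normalised counts of the second overlapped between the tissues at ZT18.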

How the results depend on the processing

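The number of models in the averaged comparison stayed between 21294 and 25366 under all alternatives in edgeR and DESeq2. In limma with all libraries it was lower, 17068 on log2(TPM + 1) and 16702 on log2(TPM + 0.1). The higher side outnumbered the lower side with the 24 shoot apex and shoot libraries alone, with no filter, without shoot ZT12 replicate 1 and in limma with all libraries, and the lower side did so in the other fits. The 4 models named by size kept their direction and stayed past the threshold in every fit run for them, and for the 2 named by time the test of the change over the day, run in edgeR and DESeq2, stayed past it. With each library left out in turn the averaged comparison gave 24065 to 25239 models, 11300 to 12298 higher and 12048 to 13407 lower, with 5472 to 6075 of at least 4-fold. The number was 9422 to 13544 at ZT0, 7661 to 12068 at ZT6, 9328 to 12610 at ZT12, 9423 to 13468 at ZT18, 5484 to 6999 in the same direction at all 4, and 13 to 39 for the change over the day. The change over the day gave 19 models with dispersions estimated first and the earlier form of glmQLFit, 16 with no filter on low counts, 17 from the 24 shoot apex and shoot libraries alone and 238 in DESeq2. Replicate numbers did not meet the criterion for pairing, a correlation over 0.1 in every same-numbered pair. It ran from −0.53 to 0.65 over 12 pairs, 8 of them over 0.1. Of 12 shoot apex libraries, 7 correlated best with their own number among the 3 shoot libraries of the time-point. Whether this reflects a pairing was not tested, and the labels name none. With the replicate block 18 models changed over the day and 24632 differed on average. In limma on log2(TPM + 1), with shoot ZT6 replicate 1 uncorrected, 6354 models were lower, 2073 at least 4-fold, 5413 past the threshold at ZT0, 5918 at ZT12, 6136 at ZT18 and 2238 at all 4. With a pseudocount of 0.1 the numbers were 6269 lower, 4469 at ZT0, 4973 at ZT12, 5542 at ZT18 and 1915 at all 4. The higher side then held 62.8% and 62.5% of the models past the threshold, against 46.9% in edgeR, and the median of all models shifted by 0.15 and 0.23 on the log2 scale. Without shoot ZT6 replicate 1, chosen after seeing the data, limma gave 21403 models, 47.8% of them higher, with 2076 at least 4-fold, 6957 at ZT6 and 4395 at all 4, a fold change on log2(TPM + 1) being smaller for low models by construction. Libraries did not overlap in 2584 models in TPM. At least 2-fold was reached by 13190 models and at least 16-fold by 1166, 23408 had the same sign at all 4 and passed on average, the single most counted model gave −0.91 percentage points (exact permutation p = 0.0320; without shoot ZT6 replicate 1 −0.40, exact permutation p = 0.0628, and without both libraries −0.31, exact permutation p = 0.113), at least 100 TPM gave 277 (exact permutation p = 0.00109), and pairs with models between them gave 51.3%. The smallest library held 4125090 expected counts, and each time-point 3 libraries of a tissue.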
